A study of Bos taurus with 2 samples.

Results

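Cluster 11 was a group of 845 cells out of 2 libraries of 9939 and 9157 cultured bovine satellite cells. Satellite cells are the stem cells of muscle, which divide in culture, and the cells of cluster 11 combined abundant DNA replication transcripts with low MYOD1 and abundant MT2A and IGFBP5. The cells came from the longissimus muscle of 1 two-week-old male Holstein calf, were freed with pronase and grown for a week in DMEM with 10% fetal bovine serum. 2 single-cell libraries were prepared from the same cell suspension, called replicates 1 and 2 here, and no animal or culture was treated. Because both libraries hold cells of the same culture of the same calf, the spread between them is technical and says nothing of how calves differ. The study sorted the cells into 15 clusters by their whole expression profile, and cluster 11 is taken here as the study drew it.

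A cell copies its DNA in S phase. Beforehand, in G1, the origin recognition complex, CDC6 and CDT1 load the ring-shaped MCM helicase on chromatin, a step called licensing. In S phase the helicase opens the DNA, polymerases follow with their sliding clamp PCNA, ribonucleotide reductase supplies nucleotides, and histones are made to wrap the new DNA. In muscle precursor cells, MYF5 and MYOD1 are the transcription factors that mark commitment to the muscle lineage, MYOG follows when cells leave the cycle to differentiate, and the inhibitors CDKN1A (p21) and CDKN1C (p57) are known to accompany that exit. MT2A is a metallothionein, a small cysteine-rich protein that binds zinc and copper, and IGFBP5 is a secreted protein that binds insulin-like growth factors.

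The deposited files hold the UMIs (unique molecular identifiers, each marking 1 captured transcript) of every gene in every cell, but do not list the cluster of each cell, and the clusters appear there as summaries per gene. Cluster members were therefore found by elimination from the deposited averages, rescaled to summed UMIs. A cell with more UMIs of a gene than a cluster still had to fill could not belong to it. Where the UMIs of the remaining candidate cells just added up to what was left, all of them were taken as members. The UMIs of placed cells were subtracted and the steps repeated. This placed every cell of both libraries. The deposited averages, rescaled to summed UMIs, lay within 0.00011 of whole numbers, and these whole numbers differed from the UMI sums of the placed cells in 0 of 252240 pairs of gene and cluster. Replicate 1 gave 446 of its 9939 cells to cluster 11 (4.49%, exact 95% binomial interval 4.09 to 4.91), and replicate 2 gave 399 of 9157 (4.36%, 3.95 to 4.80). These intervals cover counting error only. The 2 shares overlap within their intervals.

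Levels below are UMIs per 10000 UMIs of the named cells, summed within each library, and are given for replicate 1 and then replicate 2, or as a mean ± SD over the 2 libraries. Cluster 11 held 8089009 UMIs in replicate 1, where its median cell had 17338.5 UMIs from 4035 genes, and 7482322 UMIs in replicate 2, where the median cell had 17886 UMIs from 4134 genes. Its cells were deeper than the median cell of their libraries, which had 14626 UMIs in replicate 1 and 15206 in replicate 2. Over 9242 genes with 20 or more UMIs in cluster 11 in each library, the median absolute log2 difference between the libraries was 0.11, and 310 genes (3.35%) differed by more than 1.5-fold. A simulated-doublet score, used to mark the 8% of cells most like a mixture of 2 cells, marked 4.97% of cluster 11, against 18.5% of cluster 6, 14.4% of cluster 5 and 11.5% of cluster 4. All cells were kept in the values below. 27 barcodes occurred in both libraries, and 1 cell of cluster 11 carried such a barcode.

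Every gene took part in forming the clusters, so a difference between cluster 11 and other cells describes the cluster and is not tested. A gene is called higher or lower where its share of UMIs in cluster 11 was past 1.5-fold of that in the compared cells, in the same direction in both libraries, among the 9067 genes with at least 1000 UMIs over all cells. Against all other cells, 331 genes were higher (3.65% of the genes compared) and 492 were lower (5.43%). The most abundant transcripts were those of general cell upkeep: VIM, an intermediate filament of mesenchymal cells, stood at 96.1 ± 0.24 UMIs per 10000, and the ribosomal protein genes together took 22.2% of all UMIs. Clusters are named by the study's numbers, and clusters 5, 6 and 4 were the nearest to cluster 11 over all genes.

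Replication genes were more abundant in cluster 11 than in all other cells. The 43 genes of a commonly used S phase list that the files hold summed to 46.7 and 44.7 UMIs per 10000 in cluster 11, the highest of the 15 clusters in both libraries, and to 25.5 and 25.1 in all other cells. Of the 42 of them that were compared, 34 were higher than in all other cells and 0 were lower, with a median log2 ratio of 0.84 beside 0.05 over all genes. Cluster 6 came next, at 45.3 and 43.3, so that the spans of the 2 clusters overlap between libraries. Clusters 9, 2 and 4 followed, between 32.8 and 34.3, and clusters 8 and 12 were lowest, with 10.6 and 10.3 in the former and 6.8 and 7.1 in the latter.

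**Figure D1:**
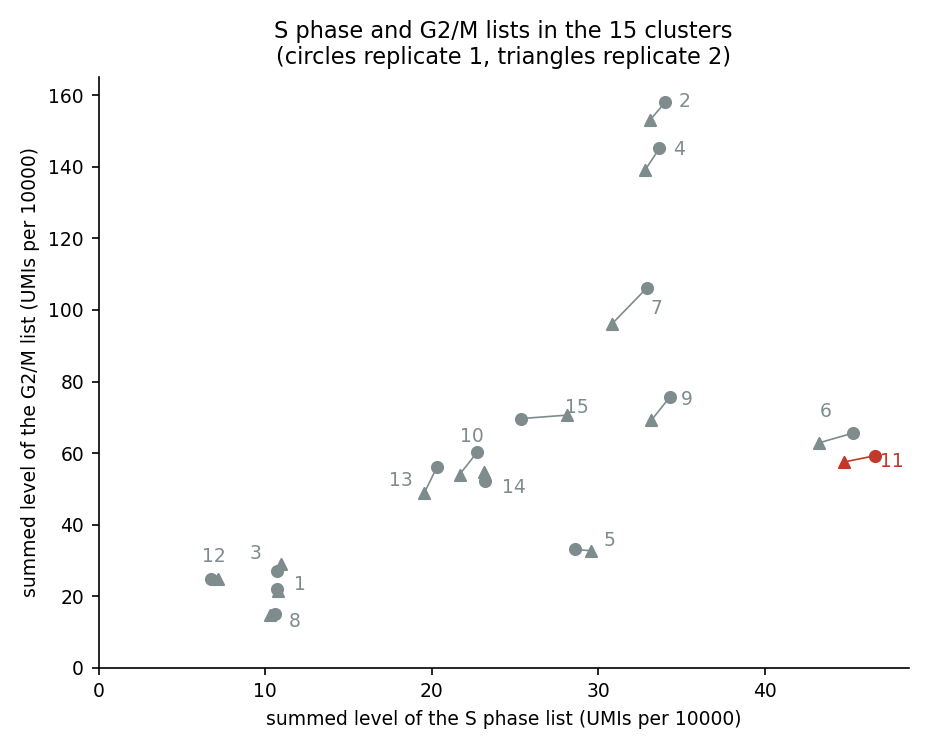
Summed level of the S phase list (horizontal axis, UMIs per 10000 UMIs) and of the G2/M list (vertical axis, same unit) in each of the 15 clusters; circles are replicate 1, triangles replicate 2, a line joins the 2 libraries of a cluster, and numbers are cluster numbers. Cluster 11 lies with cluster 6 at the right edge, with S phase sums of 43.3 to 46.7 in single libraries, while clusters 2 and 4 lie higher, with G2/M sums of 139 to 158.

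Among licensing genes, 15 of 22 were higher in cluster 11 than in all other cells and 0 were lower (median log2 ratio 0.82). MCM10, which helps turn the loaded helicase into a moving fork, stood at 1.00 and 1.11 UMIs per 10000 in cluster 11 and at 0.448 and 0.451 in all other cells, a log2 ratio of 1.23. CDC6, the loader of the helicase, had 0.368 and 0.342 against 0.114 and 0.108, a log2 ratio of 1.68 ± 0.03. Both genes were thus well separated between cluster 11 and the rest in each library. GMNN, which encodes geminin, the inhibitor that blocks a second round of licensing, was also higher, at 1.26 and 1.32 against 0.605 and 0.594. MCM5, a subunit of the helicase ring, had 2.70 and 2.64 against 1.37 and 1.39 (log2 ratio 0.96). Licensing genes summed to 20.4 and 20.1 in cluster 11 and to 20.2 and 19.8 in cluster 6.

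Of 35 genes of the replication fork and nucleotide synthesis, 20 were higher and 0 were lower, with a median log2 ratio of 0.69. RRM2, the subunit of ribonucleotide reductase whose level limits nucleotide supply, stood at 2.86 and 2.53 UMIs per 10000 against 1.22 and 1.15 in all other cells. PCNA had 4.26 and 4.25 against 2.13 and 2.10, a log2 ratio of 1.01. DUT, which removes dUTP from the nucleotide pool, was abundant at 8.66 and 8.30 UMIs per 10000 but differed less, with a log2 ratio of 0.26. TYMS, the enzyme that makes thymidylate, had 2.05 and 2.01 against 1.48 and 1.46 and was not past 1.5-fold.

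Genes of histone supply and chromatin assembly were higher in 10 of 16 cases and lower in 0. UHRF1, which carries DNA methylation over to the new strand, stood at 2.40 and 2.37 UMIs per 10000 against 1.01 and 1.03 (log2 ratio 1.23). NASP, a chaperone of linker and core histones and the most abundant gene of the S phase list here, had 5.13 and 4.82 against 2.61 and 2.42 (log2 ratio 0.98). The linker histone gene HIST1H1E had 1.67 and 1.73, with a log2 ratio of 0.90. Recombination and checkpoint genes were higher in 16 of 23 cases and lower in 0. BRCA2, a protein of recombination repair, had 1.34 and 1.18 UMIs per 10000 and a log2 ratio of 1.12, and MSH6, a mismatch repair protein, had 1.81 and 1.75 and a log2 ratio of 0.80. Counted once each, the genes of the S phase, licensing, fork, histone and recombination lists numbered 108, of which 71 were higher, 0 were lower and 37 were past 1.5-fold in neither direction.

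Mitotic genes did not share this pattern. The G2/M list summed to 59.3 and 57.5 UMIs per 10000 in cluster 11 and to 71.4 and 69.8 in all other cells. Of its 53 genes, 0 were higher and 3 were lower, beside 3.65% and 5.43% of all genes compared. CENPF, a kinetochore protein that accumulates towards mitosis, had 4.17 and 3.99 against 6.90 and 6.72 (log2 ratio −0.74). TOP2A, the topoisomerase that untangles sister chromosomes, is on the G2/M list and also among the 108 replication genes. It had 1.99 and 1.59 against 2.75 and 2.36 and was not called. CCNB1, the cyclin that drives entry into mitosis, had 0.632 and 0.674 with a log2 ratio of −0.68. The G2/M sum of cluster 11 was mid-range, at rank 8 and 7 of the 15 clusters. Clusters 2 and 4 were far above, at 158 and 153 and at 145 and 139. Cluster 11 stood above clusters 5 and 8, among others, whose G2/M sums were 32.7 to 33.1 and 14.9.

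Of 25 compared cyclins, their kinases and inhibitors, 8 were higher, 6 were lower and 11 were past 1.5-fold in neither direction. CDK2, the kinase of S phase entry, was highest of the 15 clusters in both libraries, at 0.514 and 0.521 UMIs per 10000 against 0.225 and 0.243 in all other cells (log2 ratio 1.15). Its partner CCNE2 had 0.178 and 0.195 against 0.0843 and 0.0893. Among the D cyclins of early G1, CCND2 and CCND3 were lower, each with a log2 ratio of −0.73, while CCND1 had 0.559 and 0.613 against 0.640 and 0.664 and was not called.

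CDKN1C and CDKN1A, inhibitors of cyclin-dependent kinases, were at their lowest in cluster 11. CDKN1C stood at 0.456 and 0.330 UMIs per 10000 against 7.49 and 7.70 in all other cells, a log2 ratio of −4.29 ± 0.36, which makes it 19.6-fold higher in the other cells. Cluster 12, where muscle structural genes were most abundant, had a mean of 37.4. CDKN1A had 0.482 and 0.481 against 1.66 and 1.61 (log2 ratio −1.77). The next lowest cluster for CDKN1C was cluster 5, at 0.685 and 0.775, also past 1.5-fold above cluster 11. ID1, an inhibitor of the basic helix-loop-helix factors to which MYOD1 belongs, was more abundant in cluster 11 than in any other cluster, at 14.1 and 14.2 against 10.3 and 10.2, but at a log2 ratio of 0.47 it was not past 1.5-fold.

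MYOD1 was low in cluster 11 but lower still in clusters 8 and 9. It stood at 1.30 and 1.41 UMIs per 10000 in cluster 11 and at 4.34 and 4.07 in all other cells, a log2 ratio of −1.64 ± 0.15, and 12 clusters had more of it in both libraries. Cluster 9, in which PDGFRA, a receptor marking fibro-adipogenic progenitors, stood at 1.63 and 1.53, had 0.678 and 0.464 of MYOD1, and cluster 8 had 0.88 and 0.90. MYF5 stood at 1.08 and 1.05 in cluster 11, 0.973 and 0.915 in all other cells, 1.64 and 1.49 in cluster 8, and 0.135 and 0.126 in cluster 9. MYF5 in cluster 11 was therefore within 1.5-fold of the culture as a whole. PAX7 and PAX3, the factors of quiescent and early muscle stem cells, were near the limit of detection, with 16 and 18 UMIs in all of cluster 11.

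Of 13 compared myogenic regulators 0 were higher, 4 were lower and 9 were past 1.5-fold in neither direction against all other cells. MYOG had 0.104 and 0.115 UMIs per 10000 against 2.22 and 2.25, a log2 ratio of −4.35. MEF2A, a partner of the myogenic factors, had 0.680 and 0.627 against 1.17 and 1.14 (log2 ratio −0.82), and MYMK, the membrane protein of myoblast fusion, had 8 UMIs in all of cluster 11. Of 23 compared muscle structure genes, 20 were lower and 0 were higher, with a median log2 ratio of −3.28. The whole list summed to 29.3 and 30.1 in cluster 11, the lowest of the 15 clusters in both libraries, against 30.5 and 30.4 in cluster 9, the next lowest, and 426 and 420 in cluster 12. Of the sum in cluster 11, TPM1, a tropomyosin that many cell types make, gave 19.4 and 19.3, against 20.3 and 19.7 in all other cells.

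Single structural genes followed their list. ACTC1, the cardiac actin that forms early sarcomeres, stood at 1.29 and 1.26 UMIs per 10000 against 22.8 in all other cells in both libraries. DES, the intermediate filament of muscle, had 0.932 and 0.762 against 4.83 and 4.70 (log2 ratio −2.50). NEB, the giant protein along the thin filament, had 0.283 and 0.238 against 2.58 and 2.47 (log2 ratio −3.28). Lower too were MYH3, the embryonic myosin heavy chain, at a log2 ratio of −4.11, ACTA1, the skeletal actin, at −3.83, MYLPF, a regulatory light chain, at −4.17, and the troponins TNNC2 and TNNC1 at −3.67 and −3.54. DES rested on 1324 UMIs in cluster 11, the less abundant genes of the list rested on fewer, and 4 genes had none. The size of these ratios depends on the cells cluster 11 is set against. The median log2 ratio of the list was −3.28 against all other cells, −1.61 against cluster 6 and −0.14 against cluster 5. Structural sums were 426 and 420 in cluster 12 and 145 and 140 in cluster 3, and the part of each cluster in these ratios was not tested. Cluster 5 had a sum of 33.5 and 34.0.

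**Figure D2:**
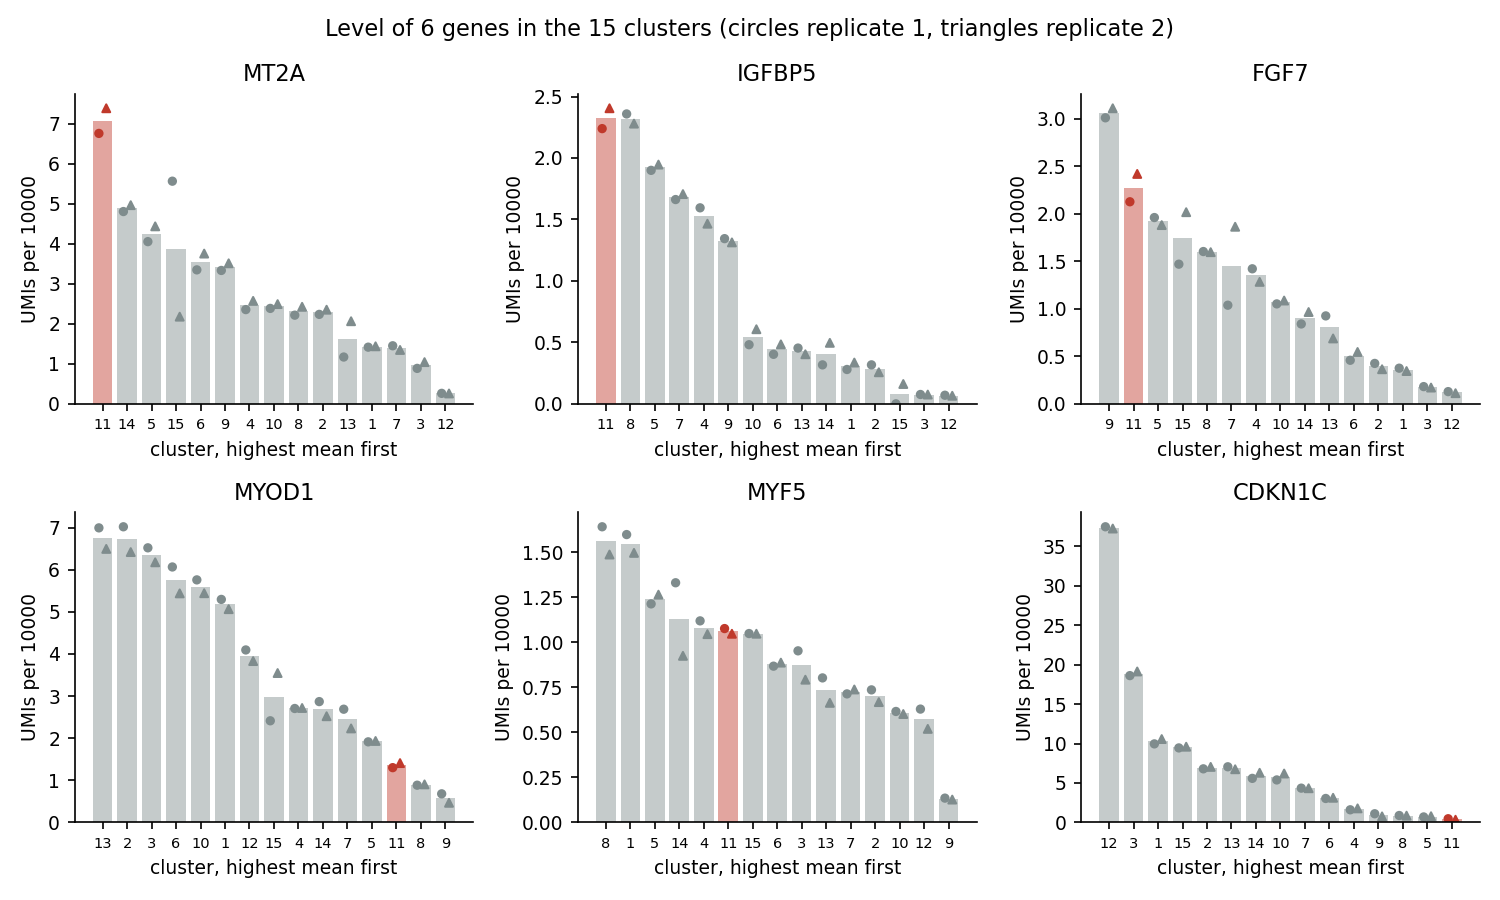
Level of MT2A, IGFBP5, FGF7, MYOD1, MYF5 and CDKN1C (UMIs per 10000 UMIs) in each of the 15 clusters, ordered by mean; bars are means of 2 libraries, circles replicate 1 and triangles replicate 2. Cluster 11 has the highest MT2A bar, at 7.07, and the lowest CDKN1C bar, while its MYOD1 bar, at 1.35, is among the shortest and its MYF5 bar is in the middle of the range.

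Of the 61 genes that were higher than in all other cells and had at least 1 UMI per 10000 in cluster 11, MT2A had the largest ratio. It stood at 6.75 and 7.38 UMIs per 10000 (mean 7.07 ± 0.44, 10986 UMIs) against 2.29 and 2.48 in all other cells, a log2 ratio of 1.57 ± 0.01 or 2.96-fold. The next clusters by mean level were 14, at 4.80 and 4.96, and 5, at 4.05 and 4.43, and the lowest was cluster 12, at a mean of 0.26. Both libraries put cluster 11 first, and its 2 values did not overlap those of any other cluster. Cluster 14 consisted of shallow cells, with a median of 2513.5 UMIs.

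Of 14 compared metallothionein and zinc genes, 2 were higher, 0 were lower and 12 were past 1.5-fold in neither direction, with a median log2 ratio of 0.23 beside 0.05 over all genes. Besides MT2A, SLC39A8, a zinc and manganese importer, was higher, at 0.0766 and 0.0936 UMIs per 10000 and a log2 ratio of 0.87. MTF1, the zinc-sensing transcription factor that is known to drive metallothionein genes, had 0.103 and 0.0882 against 0.0919 and 0.0935, and SLC30A1, a zinc exporter that is a known MTF1 target, had 0.0655 and 0.0695 against 0.0725 and 0.0739. The ranges of MTF1 overlap between cluster 11 and the rest. The related MT1E and MT3 were near the floor, with 67 and 24 UMIs in cluster 11, and MT4 was at 0 among the 15571331 UMIs of the cluster, which allows up to 3 UMIs by counting error.

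IGFBP5 stood at 2.24 and 2.40 UMIs per 10000 (mean 2.32 ± 0.12) against 0.838 and 0.830 in all other cells, a log2 ratio of 1.48 ± 0.08 or 2.78-fold. It was shared with cluster 8, which had 2.36 and 2.28 and so overlaps cluster 11, and less closely with cluster 5, at 1.90 and 1.95, the shallow cluster 7, at 1.66 and 1.71, and cluster 4, at 1.59 and 1.47. Of 11 compared genes of the insulin-like growth factor axis, IGFBP5 was the 1 higher, 2 were lower and 8 were past 1.5-fold in neither direction. IGF2, a growth factor made by developing muscle, had 2.58 and 3.31 against 8.83 and 11.3 (log2 ratio −1.77), with replicate 2 the higher in both. IGFBP3, another binding protein, had 0.859 and 0.850 against 1.54 and 1.51, a log2 ratio of −0.84. IGFBP6, a binding protein that prefers IGF2, had 4.12 and 4.21 against 3.41 and 3.48 and was not called. IGF1 was at 0 UMIs in cluster 11.

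Secreted factors and proteases numbered 24 compared genes, of which 4 were higher and 5 were lower than in all other cells. FGF7, a growth factor that acts on epithelia, had 2.13 and 2.42 UMIs per 10000 against 1.01 and 0.985, a log2 ratio of 1.18. Its highest level was in cluster 9, at 3.01 and 3.11. PRSS23, a serine protease, had 1.53 and 1.69 against 0.778 and 0.771. It was more abundant in cluster 8, at 2.68 and 2.43, and in cluster 5, at 1.81 and 1.72. SPP1 (osteopontin), a secreted phosphoprotein that binds integrins, had 1.44 ± 0.084 over the 2 libraries against 0.651 ± 0.057. CSTB, a cytosolic inhibitor of cathepsins, was highest of the 15 clusters in both libraries, at 1.12 and 1.10 against 0.491 and 0.488. Among abundant genes higher than in all other cells, the first 15 by ratio held MT2A, cell-cycle genes, these secreted and protease-related ones, the lipid synthesis genes ACACB and ELOVL6, and 2 genes without a symbol.

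Matrix genes were lower as a sum than in all other cells, at 169.8 and 169.5 UMIs per 10000 against 212 and 218. Of 31 compared, 7 were lower and 0 were higher. Among single clusters the sum of cluster 11 was mid-range, at rank 8 and 9 from the highest. Clusters 7 and 8 had the highest sums, at 834 and 886 and at 391 and 388, and cluster 14 the lowest, at 121 and 113. COL1A2, a chain of type I collagen, had 34.4 and 34.8 against 49.2 and 51.8 (log2 ratio −0.54). THBS1, a matricellular protein, had 2.67 and 2.71 against 5.36 and 5.26 (log2 ratio −0.98). TIMP2, an inhibitor of metalloproteinases, had 1.86 and 2.51 against 3.30 and 5.11, so the 2 libraries differed from each other for this gene in both sets of cells. ANKRD1, a stretch-responsive target of the YAP coactivator, had 2.72 and 2.71 against 6.19 and 6.36 (log2 ratio −1.21), and 1 of 8 compared YAP targets was lower.

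Part of the genes of amino acid supply were lower. The amino acid response list holds targets of ATF4, the transcription factor that responds to amino acid shortage, and 9 of its 18 compared genes were lower than in all other cells and 0 were higher, with a median log2 ratio of −0.71. ASNS, asparagine synthetase, had 1.00 and 1.13 UMIs per 10000 against 2.35 and 2.33 (log2 ratio −1.14). PSAT1, an enzyme of serine synthesis, had 0.737 and 0.893 against 1.55 and 1.68 (log2 ratio −0.99). The distance was larger from clusters 5 and 4, with 2.53 and 2.67 of PSAT1 in the former and 2.53 and 2.71 in the latter, and smaller from cluster 6, with 0.929 and 0.931. A list of tRNA charging and serine synthesis genes, put together after the values were seen, had 5 of 25 lower and 0 higher.

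A list of fatty acid and sterol synthesis genes, also put together after the values were seen, had 5 of 26 genes higher and 0 lower, with a median log2 ratio of 0.36. ACACB, an acetyl-CoA carboxylase, stood at 1.33 and 1.27 UMIs per 10000 against 0.618 and 0.603 (log2 ratio 1.09). ELOVL6, which lengthens palmitate, had 1.05 and 1.01 against 0.513 and 0.486, and was higher in each of the 4 comparisons, with clusters 6, 5 and 4 as well. HMGCS1, an early enzyme of sterol synthesis, had 5.35 and 5.16 against 3.46 and 3.36. Against cluster 4 the same list had 20 of 26 genes higher, while against cluster 6 the median log2 ratio was 0.00 and ELOVL6 alone was higher.

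**Figure D3:**
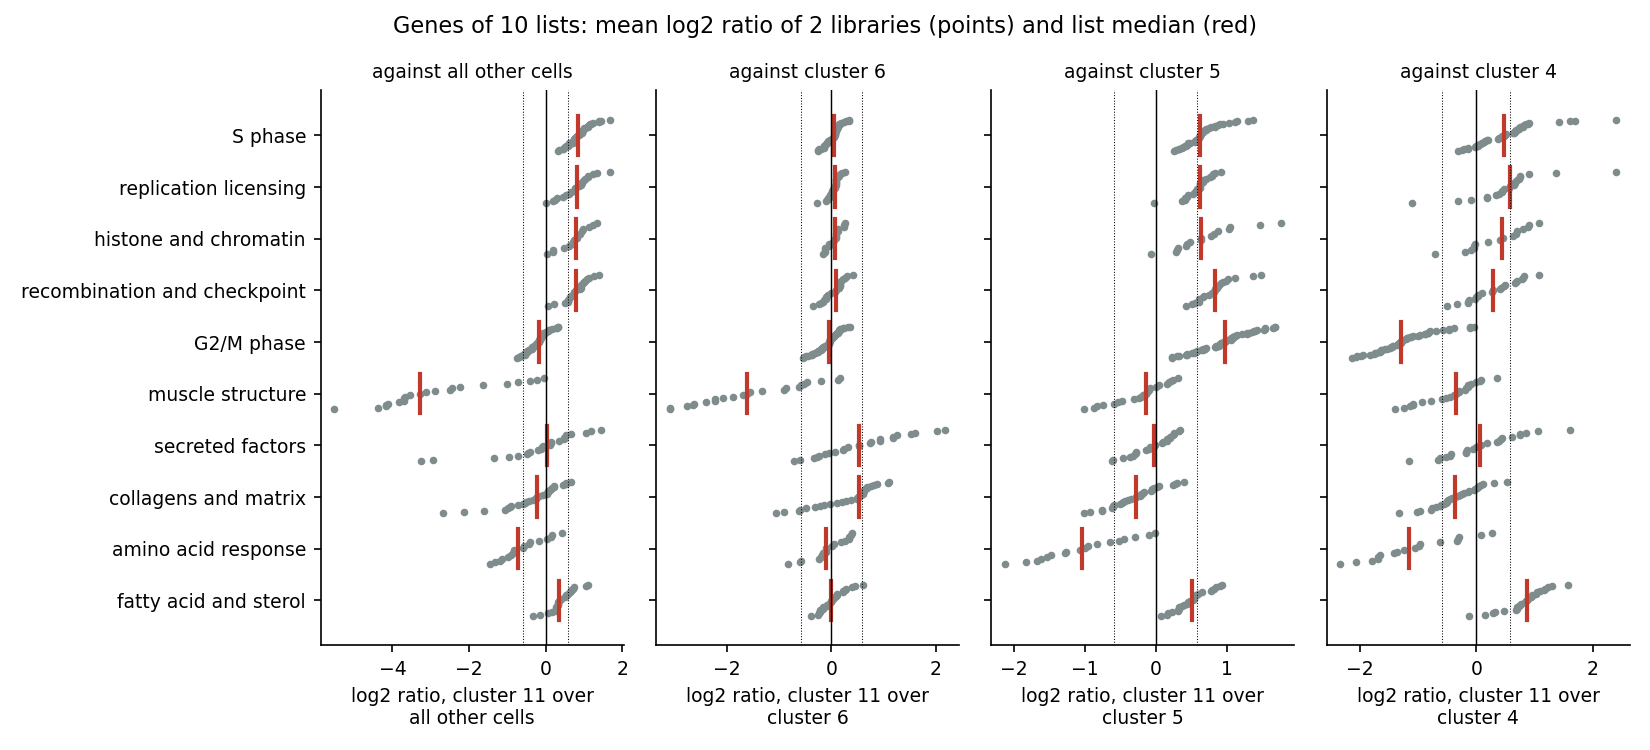
Log2 ratio of UMI share, cluster 11 over the compared cells (all other cells, cluster 6, cluster 5, cluster 4, 1 panel each), for the compared genes of 10 lists; grey points are genes (mean of 2 libraries), red marks list medians, and dotted lines 1.5-fold. The replication lists lie to the right of 0 against all other cells and around 0 against cluster 6, and the G2/M list moves from a median of 0.97 against cluster 5 to −1.30 against cluster 4.

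Markers of other cell types of muscle were checked in full. The 12 endothelial markers summed to 0.0408 and 0.0481 UMIs per 10000 in cluster 11, against 0.0565 and 0.0605 in all other cells, with FLT1 the most abundant at 0.0213, 4 genes at 0 and CDH5 and PECAM1 at 2 and 1 UMIs in all. The 15 immune markers summed to 0.0470 and 0.0454, with CD68 the most abundant at 0.0193 and 8 genes at 0, the pan-leukocyte PTPRC included. The 9 glial markers summed to 0.308 and 0.318, nearly all from S100B at 0.305, and 5 were at 0, with SOX10 and FOXD3 among them. Thus the defining markers of these 3 types were at or near 0.

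Pericyte markers summed to 0.771 and 0.715 against 0.616 and 0.645, with NOTCH3 the most abundant at 0.377, 3 of 9 genes at 0 and MCAM at 3 UMIs. Smooth muscle markers summed to 6.16 and 6.54 against 8.24 and 8.17, mostly from ACTA2 at 5.19, with the defining MYH11 at 6 UMIs and MYOCD at 0. Markers of fibro-adipogenic progenitors summed to 13.7 and 13.3 against 12.8 and 12.6, and 0 of the 9 compared were higher or lower. Their most abundant gene was DCN, a small matrix proteoglycan, at 7.43 and 7.18. PDGFRA had 0.263 and 0.279 against 0.324 and 0.307, and 2 of the markers were at 0. The fibroblast-associated genes S100A4 and COL1A1 were at 5.24 and 5.11 against 7.51 and 7.32 and at 25.1 and 24.7 against 33.7 and 33.8. PPARG and ZNF423, factors of adipocyte formation, had 49 and 54 UMIs in all of cluster 11.

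Over all compared genes, cluster 5 was the most like cluster 11, with a correlation of 0.987 between levels across genes and 477 genes (5.26%) past 1.5-fold. Cluster 6 followed, at 0.982 and 662 genes (7.30%), and then cluster 4, at 0.980 and 754 genes (8.32%). These correlations describe genes of the same libraries, which are not independent replicates. Clusters 6, 5 and 4 held 1575, 1641 and 1768 cells.

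Against cluster 6, the replication genes were within 1.5-fold, while MYOD1 and most compared muscle structure genes were lower in cluster 11. In all, 332 genes were higher in cluster 11 (3.66%) and 330 were lower (3.64%). Of the 108 replication genes 0 were past 1.5-fold in either direction, with log2 ratios between −0.34 and 0.41 and a median of 0.04, beside 0.05 over all genes. PCNA, at 4.30 and 4.09 in cluster 6, and CDC6, at 0.384 and 0.359, had ranges that overlapped those of cluster 11. MCM3, a helicase subunit, was slightly less abundant in cluster 11, at 2.53 and 2.30 against 2.95 and 2.90. None of the 53 G2/M genes was past 1.5-fold either.

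Of 13 compared myogenic regulators, 3 were lower than in cluster 6, 0 were higher and 10 were past 1.5-fold in neither direction, MYF5 among them at 0.868 and 0.887 in cluster 6. MYOD1 was at 6.07 and 5.44 UMIs per 10000 in cluster 6, a log2 ratio of −2.09 and 4.25-fold more than in cluster 11. MYOG was at 0.822 and 0.618 there (log2 ratio −2.71), DES at 4.08 and 3.78 (−2.22), and ACTC1 at 11.3 and 10.2 (−3.08). CDKN1C was at 3.03 and 3.11, a log2 ratio of −2.98, although both clusters stood alike in their S phase sums. Of 23 compared muscle structure genes, 16 were lower in cluster 11 than in cluster 6. Genes of the IGF axis lay on both sides. IGF2 was at 9.27 and 11.7 in cluster 6 and IGFBP3 at 2.96 and 2.83, both more than in cluster 11, while IGFBP5 was at 0.403 and 0.484, so that cluster 11 had 5.26-fold more of it. MX1, an interferon-induced antiviral protein, was also lower in cluster 11, at 0.304 and 0.295 UMIs per 10000 against 1.30 and 1.17 (log2 ratio −2.04).

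**Figure D4:**
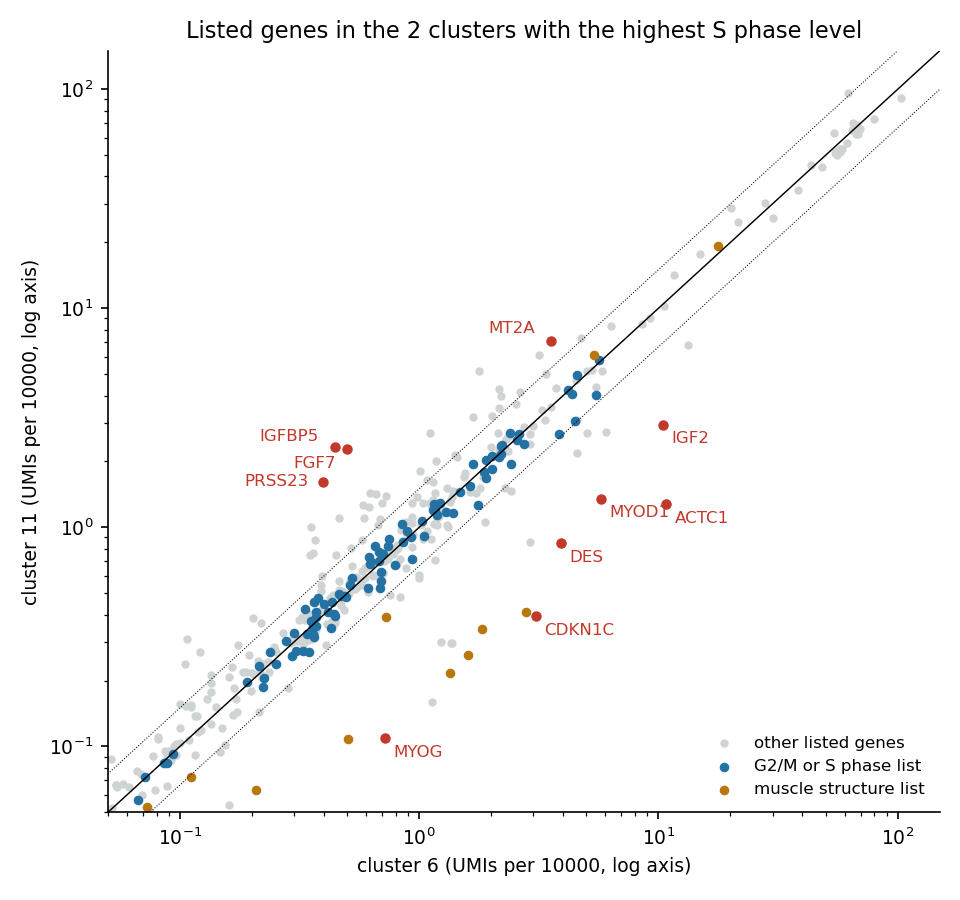
Level in cluster 6 and in cluster 11 (UMIs per 10000 UMIs, mean of 2 libraries, both axes logarithmic) of the genes of the lists that were above 0.05 in both clusters; the solid line is equality and the dotted lines 1.5-fold. Blue points (S phase and G2/M lists) lie between the dotted lines, MYOD1, ACTC1 and CDKN1C on the cluster 6 side and IGFBP5, FGF7 and MT2A on the cluster 11 side.

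Among the 51 genes higher than in cluster 6 with at least 1 UMI per 10000 in cluster 11, IGFBP5 was followed by FGF7, at 0.458 and 0.545 in cluster 6 and 4.53-fold higher in cluster 11, and PRSS23, 4.06-fold higher. ITGA5, a subunit of the fibronectin receptor, had 0.964 and 1.05 in cluster 11 against 0.340 and 0.364 (log2 ratio 1.52), and was still more abundant in cluster 9, at 4.43 and 4.85. MT2A had 3.35 and 3.75 in cluster 6, a log2 ratio of 0.99. Of 24 secreted factors and proteases 11 were higher and 1 was lower, and of 31 matrix genes 9 were higher and 2 were lower. DCN, a matrix proteoglycan, was among them, at 4.71 and 4.75 in cluster 6 (log2 ratio 0.63), while against all other cells it was within 1.5-fold. DCN also belongs to the markers of fibro-adipogenic progenitors, of which 4 of 9 were higher than in cluster 6 and 0 were lower, with a median log2 ratio of 0.63 beside 0.05 over all genes. PDGFRA, at 0.119 and 0.124 in cluster 6, was past 1.5-fold too (log2 ratio 1.16).

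Against cluster 5, cluster 11 had more of most G2/M genes, and the myogenic regulators were within 1.5-fold. Here 303 genes were higher in cluster 11 (3.34%) and 174 were lower (1.92%). This balance depended on the scaling, since TMM normalization gave 227 higher and 242 lower. Of 13 compared myogenic regulators 0 were past 1.5-fold, and MYOD1 in cluster 5 stood at 1.91 and 1.93 UMIs per 10000. Of 23 compared muscle structure genes 3 were lower and 0 were higher, with a median log2 ratio of −0.14 beside 0.07 over all genes. Of the 53 G2/M genes 39 were higher in cluster 11, with a median log2 ratio of 0.97, and of the 108 replication genes 48 were higher and 0 were lower, with a median of 0.63. MKI67, a protein of the surface of mitotic chromosomes made by all dividing cells, had 2.45 and 2.35 against 0.808 and 0.852 in cluster 5 (log2 ratio 1.53), and TOP2A had 1.99 and 1.59 against 0.560 and 0.545 (log2 ratio 1.69).

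The list with most genes lower than in cluster 5 was the amino acid response, with 13 of 18 genes lower, 0 higher and a median log2 ratio of −1.03. PSAT1 was lower by a log2 ratio of −1.68, PSPH, the last enzyme of serine synthesis, by −1.47, and PHGDH, the first, had 3.41 and 3.72 against 7.13 and 7.10. The mRNA of ATF4 itself had 4.62 and 4.76 against 6.71 and 6.76, a log2 ratio of −0.52 that is within 1.5-fold. COL1A1 had 25.1 and 24.7 against 47.8 and 46.7 (log2 ratio −0.92). MT2A was also higher than in cluster 5, at a log2 ratio of 0.74, while IGFBP5, with a log2 ratio of 0.27, was within 1.5-fold.

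Against cluster 4, most G2/M genes were lower in cluster 11. In all, 313 genes were higher in cluster 11 (3.45%) and 441 were lower (4.86%). Of the 53 G2/M genes 46 were lower and 0 were higher, with a median log2 ratio of −1.30, and the replication genes were higher in 32 of 108 cases and lower in 3. CENPF had 17.2 and 16.4 UMIs per 10000 in cluster 4, and TOP2A, which is counted in both sets, had 8.10 and 6.88 there (log2 ratio −2.07). CDC6 lay furthest on the other side, at 0.0626 and 0.0724 in cluster 4 (log2 ratio 2.40). MYOD1 was at 2.70 and 2.72, past 1.5-fold above cluster 11, and 13 of 18 amino acid response genes were lower in cluster 11. The 20 lipid synthesis genes higher here included 3 with large ratios: ACACB had 0.448 and 0.422 in cluster 4 (log2 ratio 1.58), HMGCS1 had 2.21 and 2.05 (1.30), and FASN, the fatty acid synthase, had a log2 ratio of 1.16.

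Single cells showed how evenly these levels were spread. Each cell was thinned to 5000 UMIs so that depth could not set the share of cells with a UMI, which kept 844 of the 845 cells of cluster 11. MT2A had at least 1 UMI in 83.1% of these cells (exact 95% interval 80.4 to 85.5), with 83.4% in replicate 1 and 82.7% in replicate 2, and in 96.2% without thinning. In clusters 6, 5 and 4 the shares were 66.3%, 68.2% and 49.9%. The median cell of cluster 11 had 3 MT2A UMIs, the top cell had 21, and the tenth of cells with most held 31.9% of its UMIs. A UMI of MT2A was common in other clusters too, with 62.4% in cluster 9 and 48.4% in cluster 8. In cluster 12, at 0.262 and 0.259 UMIs per 10000, MT2A was far lower than in cluster 11, which bounds its background if free RNA is alike in all droplets.

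IGFBP5 was found in 52.4% of thinned cells of cluster 11 (51.5% and 53.4% by library), against 14.1% in cluster 6, 42.3% in cluster 5 and 48.3% in cluster 8. MYOD1 was found in 37.4% (38.2% and 36.6%), against 86.7% in cluster 6, 42.9% in cluster 5 and 13.3% in cluster 9. MYF5 was found in 35.2%, against 31.7% in cluster 6 and 4.72% in cluster 9. Droplets take up RNA free in the suspension, and its background can be bounded at the same depth if it is alike in all droplets. The share of cluster 9, which had the least MYOD1, bounds it for MYOD1 and MYF5. For IGFBP5 the 14.1% of cluster 6, the lowest share among the thinned clusters, bounds it. MYOG was found in 4.38% of cells of cluster 11, against 6.30% in cluster 9, 5.49% in cluster 5 and 4.14% in cluster 8, and its share in cluster 11 is not read as expression. PAX7 and PAX3 were seen in 7 and 6 of the 844 thinned cells.

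**Figure D5:**
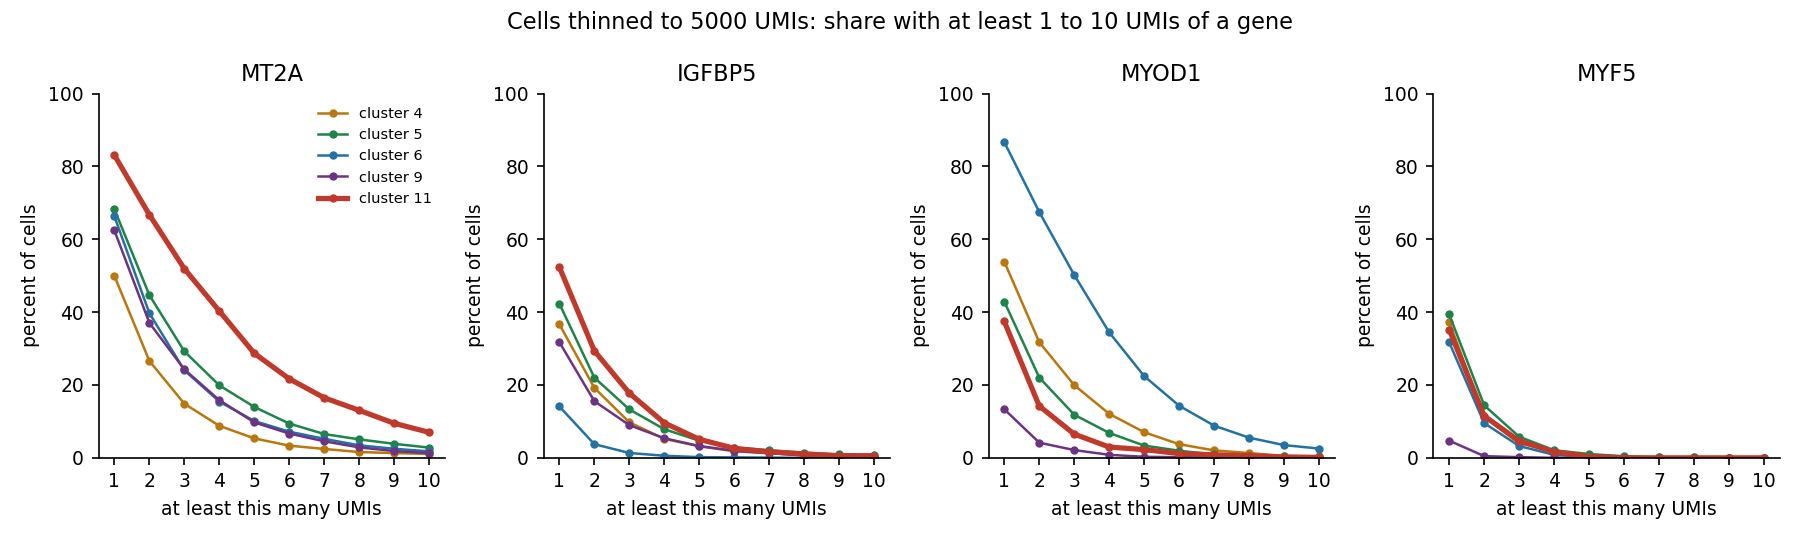
Percentage of cells (vertical axis) with at least 1 to 10 UMIs (horizontal axis) of MT2A, IGFBP5, MYOD1 and MYF5, 1 panel each, in clusters 4, 5, 6, 9 and 11, each cell thinned to 5000 UMIs; a line is 1 cluster. For MT2A the line of cluster 11 starts at 83.1% and for IGFBP5 at 52.4%, the highest of the 5, and for MYOD1 it starts at 37.4%, below cluster 6 at 86.7%.

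MYOD1 and MYF5 were also counted together in each cell. Of the 844 thinned cells of cluster 11, 114 (13.5%) had a UMI of both, 202 (23.9%) of MYOD1 alone, 183 (21.7%) of MYF5 alone and 345 (40.9%) of neither. Free RNA and doublets add to the first class, with MYOD1 in 13.3% of thinned cells of cluster 9 and 4.97% of cluster 11 marked as doublets, and their part in it was not tested. In cluster 6 the same classes took 27.6%, 59.1%, 4.13% and 9.21% of cells. A cell without a UMI at this depth may still express the gene. When all UMIs were counted, MYOD1 reached 68.5% and MYF5 67.9% of cluster 11 cells. These shares include free RNA, and in cluster 9 they were 38.1% and 17.3%.

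UMIs of the S phase list were also counted per cell. The median thinned cell had 23 UMIs of the list in replicate 1 and 22 in replicate 2, and the tenth percentile over both, 14, was as high as the median of cluster 5. In cluster 6 the median was 23 as well, with 10th and 90th percentiles of 13 and 33, against 14 and 31 in cluster 11. The G2/M list was more spread, with a median of 26 and 10th and 90th percentiles of 15 and 47, while the median was 68 in cluster 4 and 6 in cluster 8. PCNA was found in 85.9% of thinned cells of cluster 11, 86.0% of cluster 6 and 26.3% of cluster 8.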

How the data were processed

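The authors processed the reads of both 10x Genomics 3' libraries with Cell Ranger 3.0.2 (bovine build ARS-UCD1.2), combined the libraries with its aggr step, set to thin the reads to equal mapped depth per cell, and deposited 1 matrix of the resulting whole UMI counts (21867 genes), together with a table of 16816 genes. Its average columns hold, as deposited, a score: mean UMIs per cell of a cluster, scaled to a common total (14889). The authors' fold-change and p-value columns were not used. The suffix of each barcode gave the library.

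Cells were assigned to clusters by elimination against the deposited averages in 32 rounds. Counts were summed per cluster and library with Python 3.11.15, numpy 2.4.6, scipy 1.17.1 and pandas 2.3.3, and turned into UMIs per 10000. Replicate 1 held 145631299 UMIs and replicate 2 held 137818568. No tests were run, because the clusters were formed from the same counts; n is 2 libraries of 1 culture. Doublets were scored with Scrublet in scanpy 1.11.5. Its automatic thresholds marked 1 cell, so the top 8% of scores in each library (1528 cells) were taken, a choice made after seeing the scores. The alternatives used TMM factors of edgeR 4.0.16 and size factors of DESeq2 1.42.0 (R 4.3.3).

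The members and gene lists were chosen with earlier results of these data known, and 2 lists (fatty acid and sterol synthesis, tRNA charging and serine synthesis) were added after values were seen. Genes named are those the study names, MT2A and IGFBP5, the 15 highest and 10 lowest by ratio to all other cells and the 12 highest and 12 lowest to cluster 6 (past 1.5-fold, at least 1 UMI per 10000 in the higher group), and leading members of each list; not every gene so named is reported here. ITGA5 levels in cluster 9, MTF1, SLC30A1, CCND1 and TYMS were chosen after their values were seen. Columns of other samples numbered 0.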

Additional observations from a re-analysis of the deposited data

How the results depend on the processing

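The cut on low counts set the number of genes past 1.5-fold. Against all other cells, 479 genes were higher and 786 lower with at least 200 UMIs, 794 were higher and 849 lower with no filter beyond 1 UMI in both groups and libraries, and 171 were higher and 240 lower with at least 5000 UMIs. Against cluster 6 the counts were 554 higher and 511 lower, 820 and 570, and 145 and 162. Leaving out each replicate in turn, so that 1 library decides alone, gave 453 to 487 higher and 596 to 655 lower genes against all other cells. Against cluster 6 it gave 504 to 542 higher and 428 to 466 lower. It gave 506 to 581 higher and 293 to 393 lower against cluster 5, and 493 to 511 higher and 594 to 698 lower against cluster 4. TMM factors gave 240 higher and 591 lower against all other cells (28.9% higher, in place of 40.2%) and 227 and 242 against cluster 5 (48.4%, in place of 63.5%), where DESeq2 size factors gave 225 and 243 (48.1%). Against cluster 6, TMM gave 252 and 373 and DESeq2 255 and 370 (40.3% and 40.8% higher, in place of 50.2%), and against cluster 4 TMM gave 245 and 520. With the other clusters weighted equally, 286 were higher and 626 lower than in all other cells. The summed S phase list had a log2 ratio of 0.85 to all other cells, 0.77 with TMM, 0.80 with DESeq2 and 0.93 with the other 14 clusters weighted equally. For the G2/M list, −0.27 became −0.29 without doublets, −0.35, −0.33 and −0.12. The share of cluster 11 was 4.91% of cells with at least 2000 UMIs. Settings for clusters 5 and 4 and the omission of shallow clusters (348 higher, 484 lower) were chosen after seeing the data. Of the 83 named genes, 61 moved by more than the spread between libraries with equal weights, 47 with TMM and 35 with DESeq2 against all other cells, and 53 moved against cluster 6 without doublets. None changed sign against all other cells or cluster 6 where its ratio was past 1.5-fold. Without doublets, the log2 ratio to cluster 6 was −2.68 for ACTC1, −2.63 for CDKN1C, 2.78 for IGFBP5, 0.90 for MT2A and −2.21 for MYOD1. Thinned to 3000 or 10000 UMIs, MT2A was found in 75.2% or 92.5% of cells, IGFBP5 in 40.0% or 67.4% and MYOD1 in 28.6% or 55.1%. The causes of these shifts were not tested. No paired analysis was possible because the values come from no test; each ratio was taken within a library. Depth limits MYOG, PAX7 and PAX3, which had 170, 16 and 18 UMIs in cluster 11, and those structural genes with few UMIs there. DES, with 1324 UMIs, was better counted.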

Other observations

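Within cluster 11, some genes varied from cell to cell far more than counting allows. The Fano factor (variance over mean of UMIs per cell after thinning to 5000 UMIs, which is near 1 for pure counting) had a median of 1.03 in both libraries over 5092 genes. VIM, the most abundant of the genes named here, had 5.41 in replicate 1 and 5.85 in replicate 2, and COL1A2 had 4.61 and 3.78. IGFBP3 had 5.17 in replicate 1 and 6.34 in replicate 2, IGF2 had 4.72 and 8.54, ID1 had 4.52 and 5.19, and COL1A1 had 4.88 and 4.77. S100A4, a calcium-binding protein, had 4.54 and 4.92. TFPI2, a secreted protease inhibitor, had 3.70 and 3.21, SPP1 had 3.90 and 3.20, and MT2A had 3.12 and 3.56. Thus IGF2 and IGFBP3, both low in the cluster as a whole, were among its most uneven genes. Abundant genes reach high Fano factors more readily, and how far abundance sets this order was not tested. These genes were chosen after their values were seen.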
